A study of Mus musculus with 2 samples.

Results

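Pax6, Klf4, Klf5, Trp63 and Elf3 are transcription factors that set and keep the identity of the corneal epithelium. They were selected by name, as spots carrying a listed symbol or an older synonym on both arrays. Of these 5 genes, 4 had a spot (Pax6, Klf4 and Klf5 with 1 spot each and Trp63 with 2), and Elf3 had none under its symbol or a synonym and was not analysed here. The 5 spots stand among 35852 gene spots, and the 4 genes among 7896 named genes that lay above background. Corneal RNA was taken from Balb/c mice with spontaneous degeneration in a single eye: the tissue labelled degenerative cornea came from the affected eye and the tissue labelled normal cornea from the other eye. No treatment, induced mutation or transgene is named for either tissue, and the sources used here do not give the age of the mice or the number pooled. Both RNAs were hybridised together on 2 two-colour spotted arrays, with the degenerative cornea in Cy5 on array 1 and, after the dye swap, in Cy3 on array 2. As a dye swap the arrays make up 1 replicate. No test across animals was therefore possible, no p-value is given, and ± is the SD between the 2 arrays, which measures technical spread, except for control spots, where it is the SD over the spots of an array.

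The corneal epithelium is a stratified epithelium renewed from stem cells at the limbus. Pax6, a paired box and homeodomain factor, directs eye development and remains active in the adult corneal epithelium, and it is also made in the lens epithelium, the iris and neurons of the inner retina. The p63 protein encoded by Trp63 belongs to the p53 family and maintains the basal, proliferative layer of stratified epithelia. Klf4 and Klf5 are Kruppel-like zinc finger factors that bind GC-rich and CACCC-type DNA. In mice Klf4 is needed for corneal epithelial differentiation and barrier function, and Klf5 for maturation and maintenance of the ocular surface. Elf3 is an ETS factor of differentiating epithelia.

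The DNA around the annotated starts of Klf4, which had the highest ratio of the 4 genes, and of Pax6, whose single spot stands for a gene with more than 1 annotated start, is given here from RefSeq (build GRCm38.p6). Each window runs 5′ to 3′ on the gene's strand, from 250 bases before the start to 50 bases after it. Capitals mark the Kruppel-like motif CACCC and the GC box GGGCGG, searched on both strands.
Klf4, chr4:55532426-55532725, minus strand: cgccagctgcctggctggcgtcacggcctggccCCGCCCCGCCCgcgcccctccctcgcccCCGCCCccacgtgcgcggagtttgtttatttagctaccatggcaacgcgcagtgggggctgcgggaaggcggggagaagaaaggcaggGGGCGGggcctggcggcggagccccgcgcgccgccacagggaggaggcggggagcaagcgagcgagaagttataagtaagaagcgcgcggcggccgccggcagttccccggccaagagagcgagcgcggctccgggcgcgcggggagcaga
Pax6, chr2:105668646-105668945, plus strand: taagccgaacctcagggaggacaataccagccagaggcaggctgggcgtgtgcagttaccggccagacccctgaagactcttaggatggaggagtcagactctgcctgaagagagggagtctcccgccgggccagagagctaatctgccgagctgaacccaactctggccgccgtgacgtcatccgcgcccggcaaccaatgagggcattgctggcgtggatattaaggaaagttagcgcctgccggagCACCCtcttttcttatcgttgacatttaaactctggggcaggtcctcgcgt
Pax6, chr2:105682213-105682512, plus strand: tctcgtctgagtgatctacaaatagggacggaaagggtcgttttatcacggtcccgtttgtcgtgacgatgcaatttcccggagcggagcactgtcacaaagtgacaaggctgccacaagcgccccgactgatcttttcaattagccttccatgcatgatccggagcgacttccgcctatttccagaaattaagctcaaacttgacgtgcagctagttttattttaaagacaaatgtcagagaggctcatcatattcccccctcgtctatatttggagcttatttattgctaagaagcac
The Klf4 window held 4 GC boxes, the most upstream pair of which share a base, and no CACCC. The upstream Pax6 window held 1 CACCC and no GC box, and the other Pax6 window held neither. No base belonged to both motifs. Of 32851 promoter windows of the same length, 57.5% held CACCC and 35.7% held GGGCGG, so each motif is common and its presence describes the sequence only. These letters say nothing of binding in the cornea.

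Klf4 and Trp63 were slightly brighter in the degenerative cornea on both arrays, Pax6 less so, and Klf5 was close to equal. The mean log2 ratios, degenerative over normal, were 0.29 ± 0.004 for Klf4, 0.26 ± 0.02 for Trp63, 0.15 ± 0.08 for Pax6 and 0.04 ± 0.07 for Klf5. On the linear scale these are 1.22-fold, 1.20-fold, 1.11-fold and 1.03-fold. None of the 4 genes was called, where a call required both arrays to show a change of 2-fold or more (a log2 ratio of 1 in size) in 1 direction. Over all 7896 measured genes 0.317% were called higher and 0.709% lower.

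Klf4 has its spot in print block 37. On arrays 1 and 2 the degenerative cornea gave deposited intensities of 23742 and 23075 and the normal cornea 19407 and 19935. Both degenerative values lay above both normal values. These readings are unnormalized and in different dyes, and the share of all genes with the same pattern was not counted. Normalized, array 1 gave a log2 ratio of 0.28 and array 2 one of 0.29, and unnormalized ratios of the same intensities were 0.29 and 0.21. Klf4 had the smallest difference between the arrays of the 4 genes, and its ratio was nearly the same in both dye orientations.

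Trp63 was measured by 2 spots in different print blocks. The spot in block 21 had intensities of 9376 and 9344 for the degenerative cornea and 8135 and 7377 for the normal cornea. The spot in block 46 had 3512 and 3673 for the degenerative cornea and 3304 and 2759 for the normal cornea. On each spot both degenerative intensities lay above both normal intensities before normalization. The log2 ratios of the block 21 spot were 0.24 on array 1 and 0.35 on array 2, and those of the block 46 spot 0.25 and 0.20. The 2 spots overlapped and gave means of 0.29 ± 0.08 and 0.23 ± 0.03, so both placed Trp63 above 0. Block 46 is 1 of 4 print blocks that together held 176 of the 187 spots named Empty above the background limit, and in block 46 itself 26 of 103 Empty spots were above it. Without that block the ratio of Trp63 was 0.29. The sources used here do not say which isoforms of p63 the spots detect.

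Pax6 had intensities of 10654 and 10342 for the degenerative cornea and 9894 and 8882 for the normal cornea, again without overlap between the tissues before normalization. Its log2 ratios were 0.09 on array 1 and 0.20 on array 2. The ratio was above 0 in both dye orientations and differed between them by an amount of the same order as its mean.

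Klf5 was the gene in which the tissues overlapped. Its intensities were 4803 and 4898 for the degenerative cornea and 5024 and 4361 for the normal cornea. The log2 ratios were -0.01 on array 1 and 0.09 on array 2. Both degenerative values lay between the 2 normal values, and the mean ratio was smaller than its SD.

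**Figure D1:**
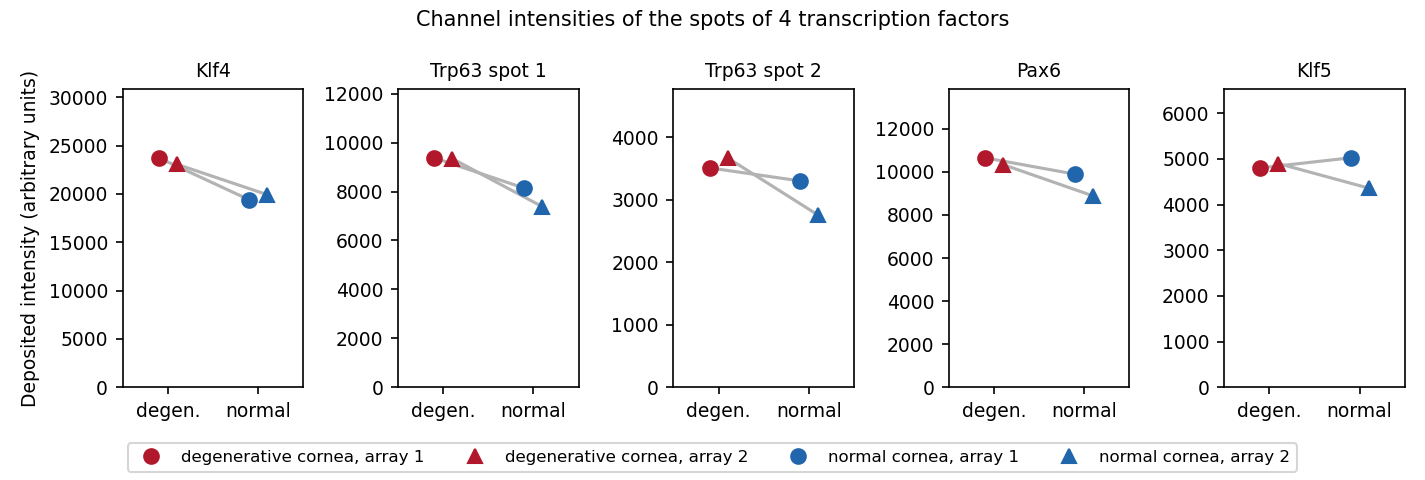
Deposited channel intensity (arbitrary units, axes from 0, a separate axis for each spot) of the spots of Klf4, Trp63, Pax6 and Klf5 in degenerative and normal cornea. Circles are array 1, triangles array 2, and grey lines join the channels of an array. In these unnormalized readings the degenerative values lie above the normal values except for Klf5, where 4803 and 4898 lie between 5024 and 4361.

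All 20 channel readings of the 5 spots were above the background limit, and none was saturated. The lowest reading relative to its limit, the degenerative channel of the block 46 Trp63 spot on array 2, stood 4.66 times above it. Background filters therefore did not alter the ratio of any of the 4 genes. Abundant epithelial products such as Krt12 and Aldh3a1 were saturated, since 1 or more of their channels had reached at least 98% of the brightest reading, which compresses their ratios.

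The 4 genes kept 1 order on both arrays, Klf4 above Trp63 above Pax6 above Klf5. Klf4 exceeded Pax6 by 0.14 ± 0.07 and Klf5 by 0.24 ± 0.07, and Trp63 exceeded Pax6 by 0.11 ± 0.06 and Klf5 by 0.22 ± 0.05. In these 4 pairs the array values did not overlap. On array 2, however, the block 46 spot of Trp63 alone (0.20) stood at the level of Pax6 (0.20). Klf4 and Trp63 differed by 0.03 ± 0.02, and their array values did not overlap either. The block 21 spot of Trp63 alone (0.29) nevertheless stood at the level of Klf4 (0.29), so these neighbours are not separated. Pax6 exceeded Klf5 by 0.10 on array 1 and 0.11 on array 2, while their array values overlapped. Of the 4 genes, 3 (Klf4, Trp63 and Pax6) were above 0 on both arrays, and none was below 0 on both. Over all measured genes 34.6% were above 0 and 32.9% below 0 on both arrays. The genes were chosen with earlier values of these arrays known, so the count describes them and is not a test.

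**Figure D2:**
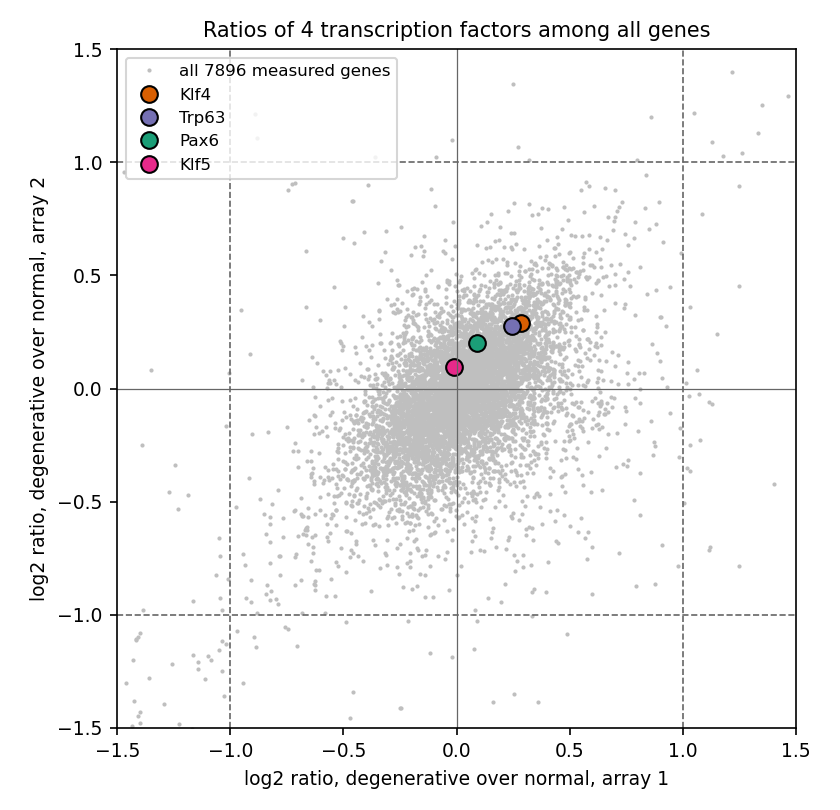
Log2 ratio (degenerative over normal) on array 1 (x axis) and array 2 (y axis) for 7896 measured genes (grey) and the 4 transcription factors (coloured). Dashed lines mark a log2 ratio of 1 in size, and 81 genes lie outside the plotted range. The 4 factors lie inside the main cloud, with Klf4 (0.28 and 0.29) and Trp63 (0.24 and 0.28) in its upper right part.

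The scatter of repeated control spots gave a technical scale for ratios of this size. Spots named M-GAPD and M-LDHA were printed once in each of 48 blocks and were not saturated. The M-GAPD spots averaged 0.18 ± 0.06 on array 1 and 0.12 ± 0.10 on array 2 (SD over 48 spots), and the M-LDHA spots -0.05 ± 0.08 and -0.08 ± 0.05. A single spot thus scattered by 0.05 to 0.10 around the mean of its kind. The mean over both arrays was 0.15 for M-GAPD, and its highest single spot by the mean of the arrays was 0.26. Klf4 (0.29) stood above every M-GAPD and M-LDHA spot on that measure. Trp63 (0.26) stood level with the highest of them, Pax6 (0.15) at the M-GAPD mean, and Klf5 (0.04) between the 2 kinds. The level of M-GAPD was not shared by the 2 gene spots of Gapdh, which averaged 0.09 on array 1 and -0.11 on array 2. Among 9 measured reference genes, with a median of 0.05, the highest was Ywhaz with 0.35, above Klf4. In its own print block Klf4 had 0.28 and 0.29, where the M-GAPD spot had 0.14 and 0.11 and the M-LDHA spot -0.10 and -0.07. The block 21 spot of Trp63 had 0.24 and 0.35, where the M-GAPD spot had 0.17 and 0.01. Its block 46 spot, with 0.25 and 0.20, was closer to the M-GAPD spot there, which had 0.19 and 0.18. In block 12, which holds Pax6 (0.09 and 0.20), the M-GAPD spot had 0.18 and 0.11. On array 1 Pax6 was thus below the control spot beside it, and on array 2 above it. The median ratios of the gene spots in the blocks of the 5 spots lay between -0.02 and -0.002 for the mean of the arrays. The 2 saturated kinds of control spot, M-ACTB and M-RPL5, were not used for this scale.

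**Figure D3:**
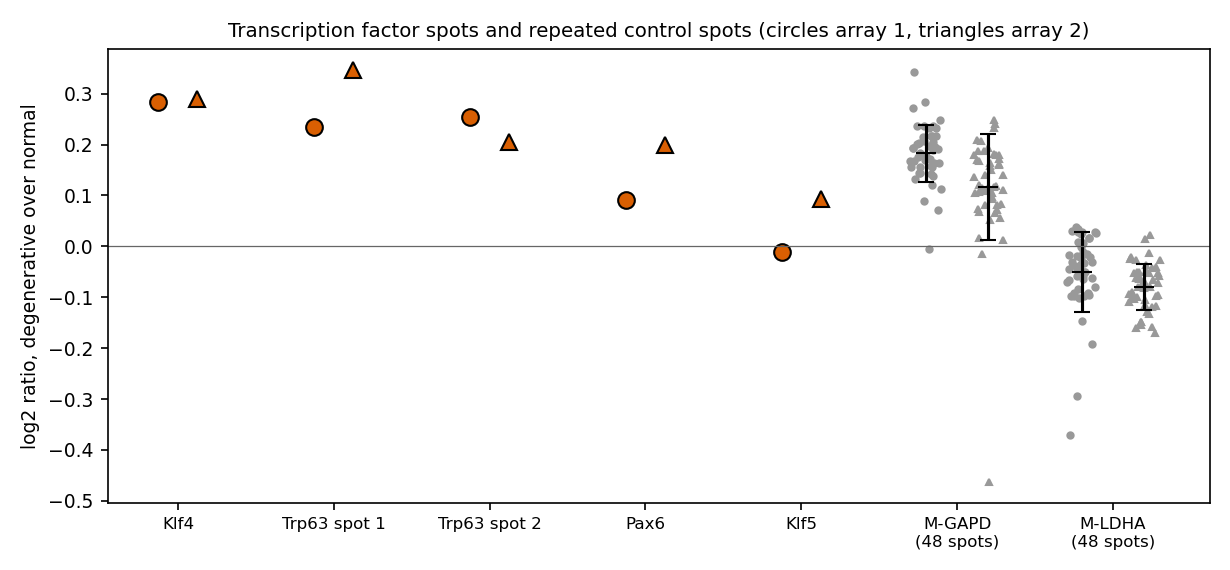
Log2 ratio (degenerative over normal) of each transcription factor spot (orange) and of 48 M-GAPD and 48 M-LDHA control spots (grey), with circles for array 1 and triangles for array 2. Black bars are the mean ± SD over the 48 spots. Klf4 and both Trp63 spots lie above the M-GAPD means (0.18 and 0.12), Pax6 lies around them and Klf5 below them.

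The ratios were also set beside genes of like brightness. All measured genes were put into 10 classes of equal size by mean signal. Among the 789 other genes in the signal class of Klf4, the dye component, which is array 1 minus array 2 divided by 2, had an SD of 0.08, and the ratio of Klf4 was 3.67 times that SD. For Trp63 the factor was 3.11, for Pax6 1.90 and for Klf5 0.50. Disagreement between the dye orientations is thus smaller than the ratios of Klf4 and Trp63 and larger than that of Klf5. Ratios as large were nevertheless common: 17.0% of the genes in the signal class of Klf4 had a ratio at least as large in size, and 17.1% in that of Trp63, 47.3% in that of Pax6 and 81.3% in that of Klf5. Among all measured genes Klf4 lay at percentile 90.7, Trp63 at 88.8, Pax6 at 75.5 and Klf5 at 56.8 of the mean ratio, whose median was 0.008. By likeness of both array ratios, 371 genes lay within 0.1 of Klf4 on both arrays, 440 of Trp63, 680 of Pax6 and 923 of Klf5. Of the listed genes described below and the marker genes, those near to Klf4 included Muc1 and Lama3, to Trp63 Otx1 and Rarg, to Pax6 Dst and Upk1b, and to Klf5 Tkt, Ets2 and Cldn4. With 2 arrays this likeness means only that the 2 ratios were close.

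Genes reported as epithelial targets of p63 mostly had ratios above 0. Of 27 listed, 19 were measured, of which 15 had ratios above 0 in both dye orientations and none had ratios below 0 in both, against 34.6% and 32.9% of all genes. None was called, against 0.317% higher and 0.709% lower over all genes. The list was drawn up with earlier results of these data known, so its counts describe it and are not a test. The median was 0.29, with 0.27 on array 1 and 0.24 on array 2, beside 0.008 for all genes and 0.26 for Trp63 itself. The largest ratios belonged to genes of adhesion, the basal cytoskeleton and Notch signalling. Itga6, an integrin of the hemidesmosome, had 0.27 and 1.07, and its normal channel exceeded background on a single array. Krt14, the type I keratin of basal epithelial cells, had 0.74 and 0.49, with a saturated channel. Jag1, a Notch ligand, had 0.57 and 0.49, and Lamb3, a chain of the basement membrane laminin, had 0.41 and 0.56. Other genes of these kinds in the list varied. The integrin Itgb4 had 0.37 and 0.46 and the laminin chain Lama3 0.28 and 0.33, while some did not share such ratios. The integrin Itga3 had -0.23 and 0.10, the desmosomal Dsc3 -0.19 and 0.11 and the Notch ligand Jag2 0.17 and 0.02. The 15 genes above 0 on both arrays lie in the same direction as Trp63, and how far p63 acts on them here was not tested. Without the 3 saturated genes the list's median was 0.29.

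Genes reported as corneal targets of Pax6, Klf4 or Klf5 stayed closer to 0. Of 16 listed, 11 were measured, with 6 of them above 0 and 1 below 0 in both dye orientations, against 34.6% and 32.9% of all genes. None was called, where 0.317% of all genes were called higher and 0.709% lower. The median of 0.07 stood beside 0.15 for Pax6, 0.29 for Klf4 and 0.04 for Klf5. The list's median was 0.01 on array 1 and 0.13 on array 2, 0.15 under a loess within print blocks and 0.03 without the saturated genes. A channel was saturated in 6 of the 11, among them Krt12 (-0.15 and 0.11), the corneal epithelial keratin, and Aldh3a1 (-0.06 and 0.13), a corneal aldehyde dehydrogenase, which limits how much of a difference this list could show. Among genes that were not saturated, the tight junction protein Tjp1 had 0.26 and 0.64, and the claudin Cldn3 had -0.26 and -0.35. The water channel Aqp5, at 0.08 and -0.07, went both ways. Krt14 and Krt5 stand in both target lists.

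Relatives of the 4 genes gave mixed ratios. The counts below stand beside 34.6% of all measured genes above 0 and 32.9% below 0 on both arrays. Of all genes 0.317% were called higher and 0.709% lower. Of 23 other Kruppel-like and Sp factors 11 were measured, 5 of them above 0 and 3 below 0 on both arrays. Their median was 0.09 and none was called. The list had a median of 0.11 on array 1 and -0.007 on array 2. Klf10, an early response gene of TGF-beta signalling, had the highest ratio of this list, with 0.70 and 0.74. Klf11 had 0.39 and 0.23, Klf6 0.11 and 0.35 and Klf3 0.25 and 0.17. Klf10 thus stood further from 0 than Klf4 (0.28 and 0.29) on both arrays. Among 11 measured ETS factors, the family of Elf3, 3 were above 0 and 2 below 0 on both arrays, and their median was 0.04. The list's median was 0.04 on array 1 and -0.10 on array 2. Elf1 had 0.41 and 0.53, while Elf2 had 0.47 and -0.02 and Elk4 -0.07 and -0.28. Ehf, a close relative of Elf3 in the corneal epithelium, was not analysed here. Of the 10 listed p53 family and other paired box factors 3 were measured, 1 of them above 0 and none below 0 on both arrays, and 7 were not above background. Pax3 (0.07 and -0.09) and Pax9 (-0.06 and 0.02) went both ways.

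A broader list of other transcription factors of corneal and surface epithelia, which shares genes with the preceding lists, had a median of 0.11. Of 50 listed, 37 were measured, 20 of them above 0 and 6 below 0 on both arrays, against 34.6% and 32.9% of all genes. None was called, where 0.317% of all genes were called higher and 0.709% lower. Bcl11b, a zinc finger factor of skin epithelium, had the lowest ratio, with -0.12 and -1.17, and its degenerative channel exceeded background on a single array. Notch1, a receptor included for its role in epithelial fate, had 0.86 and 0.20 and was above background in each tissue on 1 array only. The values of both genes rest largely on a single array. Grhl2, a grainyhead factor of epithelial junctions, had 0.23 and 0.20, and Ovol1, a zinc finger repressor of mesenchymal genes, had 0.37 and 0.44. Foxc1, a forkhead factor of the anterior segment, had 0.37 and 0.35. Relatives of Grhl2 and Ovol1 in the list went both ways, with -0.22 and 0.05 for Grhl1 and -0.12 and 0.002 for Ovol2. Below 0 on both arrays were Id3 (-0.38 and -0.43) and Id2 (-0.35 and -0.18), inhibitors of helix-loop-helix factors. The genes from Grhl2 to Id2 were named after their values were seen.

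**Figure D4:**
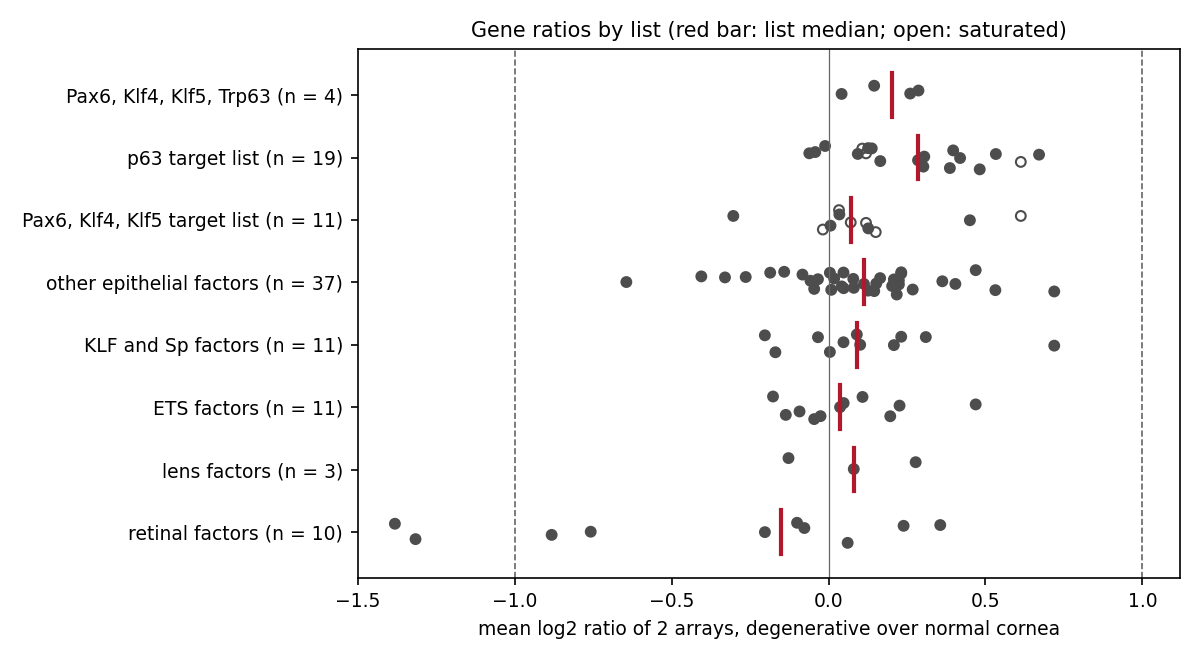
Mean log2 ratio of the 2 arrays (degenerative over normal) of each measured gene by list, with red bars at list medians, open circles for genes with a saturated channel and dashed lines at a ratio of 1 in size. The p63 target list (median 0.29) lies around Klf4 and Trp63, while 4 retinal factors lie between -1.38 and -0.76.

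Because Pax6 is also made in lens and retina, factors and markers of those tissues were read beside it. Of 12 lens transcription factors 3 were measured, with a median of 0.08, which was -0.02 on array 1 and 0.18 on array 2. Mafg (-0.15 and -0.11) and Hif1a (-0.02 and 0.18) are among them. Of 23 retinal transcription factors 10 were measured, 3 of them above 0 and 6 below 0 on both arrays, against 34.6% and 32.9% of all genes. Their median was -0.15, with -0.23 on array 1, -0.17 on array 2 and -1.04 with the 95th percentile of Empty spots as the background limit. Of the 10, 2 were called lower, Otx2 (-1.46 and -1.30) and Neurod1 (-1.43 and -1.20), against 0.709% of all genes. Crx had -1.23 and -0.53, with its degenerative channel above background on a single array. Nr2e3 had -0.62 and -0.89, while Ptf1a, a factor of amacrine and horizontal cell development, had -0.06 and -0.10. Above 0 on both arrays were Otx1 (0.23 and 0.25), Mitf (0.58 and 0.14) and Vsx1 (0.10 and 0.02). Pax6 thus had a ratio slightly above 0 where Otx2, Neurod1, Crx and Nr2e3, factors of photoreceptors, were well below it. In the retina Pax6 is made in inner neurons, so factors of photoreceptors are an unlike comparison for it. Summed over 17 measured retina markers, intensity was 94388 and 89125 in the degenerative cornea and 211570 and 189231 in the normal cornea. Their median ratio was -1.55, and 16 of 17 were below 0 on both arrays. Gnb1 alone, with a mean ratio of -0.14, gave 47201 and 40823 of the degenerative sums and 50256 and 49507 of the normal sums. Summed over 18 lens markers, intensity was 139816 and 145782 in the degenerative cornea and 49976 and 48136 in the normal cornea. Their median ratio was 1.34, and 16 of 18 were above 0 on both arrays. Not all had large ratios: Bfsp1 had 0.14 and 0.04, Bfsp2 0.05 and 0.12 and Gja3 0.04 and -0.04. Transcripts of these lens and retina markers, taken as lists, were thus present in unequal amounts in the 2 samples. Whether this came from unequal amounts of tissue or of RNA per cell was not tested. The part of lens and retinal transcripts in the ratio of Pax6 was not tested either.

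Markers of the corneal epithelium itself differed less. Of 15 markers with a spot 14 were above background in both tissues on both arrays, Krt12 among them, and 8 of the 14 with a saturated channel. Their summed intensity was 716226 and 647832 in the degenerative cornea and 658379 and 633258 in the normal cornea. Saturated readings make up much of these sums, which limits how much of a difference the sums could show. The median ratio was 0.10, and 9 of 14 were above 0 on both arrays, against 34.6% of all genes. Klf4, Trp63 and Pax6 lay above this median, and Klf5 below it. Centred on the control spots it was 0.059, and without the saturated genes 0.11. The other marker lists had medians of 0.23 (epidermal differentiation, 8 genes), 0.12 (conjunctival and mucous epithelium, 10 genes), 0.25 (keratocyte and stroma, 9 genes), 0.03 (immune cells, 7 genes) and -0.48 (melanocyte, iris and ciliary body, 6 genes). Several of these medians moved with the array or the filter. The epidermal median was 0.37 on array 1 and 0.18 on array 2, and the conjunctival median 0.045 with no background filter. The keratocyte median was 0.23 on array 1, 0.50 on array 2 and 0.007 with the 95th percentile of Empty spots as the limit. Of its 9 genes 5 were above 0 and 3 below 0 on both arrays, with Ptgds (-0.93) and Col3a1 (0.78) at the ends. The immune median was 0.28 with no filter, and the melanocyte median -0.26 with no filter and -0.78 with the Empty percentile. In bulk RNA of this kind, more epithelial cells and more RNA of a gene per cell cannot be told apart. The part of these markers in the ratios of Klf4 and Trp63 was not tested.

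The ratios of the 4 genes depended little on the filter and more on the normalization. With a loess fitted here within print blocks in place of the deposited normalization, Klf4 had 0.31 and 0.28, Trp63 0.25 and 0.32, Pax6 0.12 and 0.24, and Klf5 -0.01 and 0.12. Klf4, Trp63 and Pax6 thus remained above 0 in both dye orientations. With ratios only centred on the median of all gene spots, each of the 4 genes was above 0 on array 1 and below 0 on array 2, for example Klf4 with 0.91 and -0.33. On that scale none of the 4 was above 0 on both arrays. Few genes were: 12.03% of all measured genes, against 34.6% with the deposited normalization. The 0 of 4 therefore does not set these genes apart from the others. The median unnormalized ratio of the gene spots was -0.61 on array 1 and 0.54 on array 2 while the unnormalized ratios of Klf4 were 0.29 and 0.21. Centred on the M-GAPD and M-LDHA spots, Klf4 had a mean of 0.24, Trp63 0.22, Pax6 0.10 and Klf5 -0.001.

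**Figure D5:**
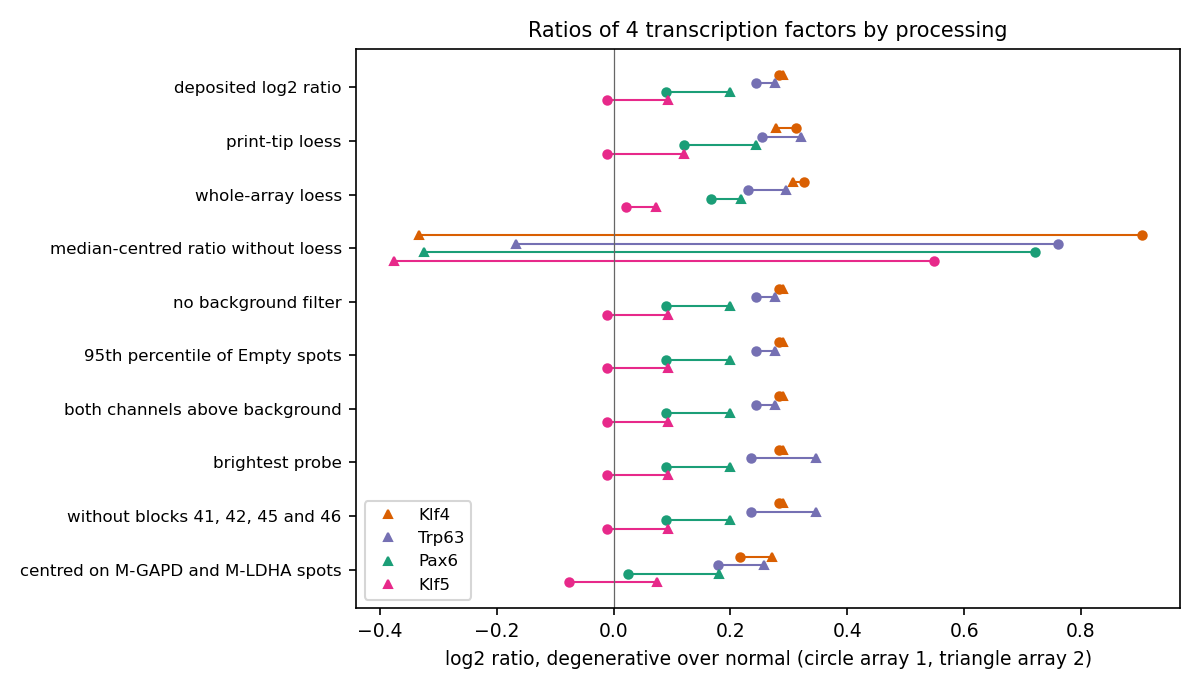
Log2 ratios (degenerative over normal) of Klf4, Trp63, Pax6 and Klf5 on array 1 (circles) and array 2 (triangles) under each processing, with lines joining the arrays. The arrays lie furthest apart where no loess was used, as for Klf4 at 0.91 and -0.33. In every other setting Klf4, Trp63 and Pax6 lie above 0 on both arrays, while Klf5 lies on both sides of 0 in each setting except whole-array loess.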

How the data were processed

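Total RNA was extracted with Trizol, purified on columns, amplified and labelled with a CapitalBio kit, per the labels' protocols. Per the file headers, the authors deposited Cy5 and Cy3 intensities for 37632 spots (48 print blocks) of each array, together with normalized log2 ratios and their linear ratio form, degenerative over normal. Some intensities are below 0, so background had already been subtracted. The sources used here do not say how the ratios were normalized, or name the scanner and software. The deposited ratios were used unchanged. A loess fitted here within print blocks (limma 3.58.1, R 4.3.3) gave log2 ratios that correlated with the deposited ones at 0.986 on array 1 and 0.977 on array 2, across spots above background.

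Control spots (1780) were left out. Names came from the deposited name column, updated through gene symbols of GRCm38.p6 (11366 spots with a current symbol, 2664 with a synonym of 1 symbol, 102 with a synonym of several, 3730 with no match, 17990 unnamed). Spots with 1 or both channels over background on array 1 and likewise on array 2 were kept, which left 14894 gene spots. Background was the median of 632 Empty spots plus 3 scaled median absolute deviations (290 and 789 for the degenerative cornea, 570 and 373 for the normal cornea, arrays 1 and 2). Saturation meant a reading of 98% of the brightest in that channel or more. For the mean log2 signal, readings under 1 counted as 1. A gene's value is the mean over its kept spots. The number of arrays limits the precision. Tables were handled in Python 3.11.15 with numpy 2.4.6 and pandas 2.3.3.

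The members, the lists, the limit and the size rule were chosen with earlier results of these data known. Named are the listed factors, up to 4 genes per list with the largest ratios and the 3 listed genes nearest to each factor, of which some are not reported here. Oligonucleotide sequences of the spots were not used here. The alternatives changed normalization, centring, filter, spot averaging, size rule and array.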

Additional observations from a re-analysis of the deposited data

Results flagged for a closer look

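Empty spots, which hold no gene, gave signal in print block 46, where 1 of the 2 Trp63 spots was printed: 26 of 103 were above the background limit in at least 1 channel. In the blocks of the Klf5 and Pax6 spots none of 6 and none of 8 Empty spots was above it, and the blocks of Klf4 and of the other Trp63 spot held no Empty spot. The block 46 spot gave Trp63 a ratio of 0.23 ± 0.03 and the other spot 0.29 ± 0.08. The part of the block's signal in that ratio was not tested.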

How the results depend on the processing

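The 4 factors were uncalled under every alternative run, also at 1.5-fold on each array. Klf4, Trp63 and Pax6 were above 0 on both arrays in every alternative except the median-centred ratios without loess. There 0 of 4 were, beside 12.03% of all measured genes. Klf4 (0.29) moved by more than its array SD to 0.29 under print-tip loess (unrounded 0.2946 against 0.2865), to 0.32 under whole-array loess and to 0.24 when centred on M-GAPD and M-LDHA spots, an alternative chosen after seeing the data. Trp63 (0.26) moved to 0.29 under print-tip loess, 0.30 without loess, 0.29 with its brightest spot, 0.29 without blocks 41, 42, 45 and 46 (also chosen after seeing the data) and 0.22 when centred on the control spots. In 3 of these settings Trp63 was above Klf4, so their order depends on the processing. Pax6 and Klf5 moved by less than their array SD in every alternative. Their SDs (0.08 and 0.07) were wider than those of Klf4 (0.004) and Trp63 (0.02). Leaving out 1 array can never move a mean by more than this SD. Staying within it therefore does not show that Pax6 and Klf5 depend less on the processing. On single arrays Klf4 ranged between 0.28 and 0.29, Trp63 between 0.24 and 0.28, Pax6 between 0.09 and 0.20 and Klf5 between -0.01 and 0.09.

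The p63 target median (0.29) was 0.26 under print-tip loess, 0.34 without loess, 0.23 with the 95th percentile of Empty spots as the limit, 0.24 when centred on control spots and 0.24 to 0.27 on single arrays. The other epithelial factors (0.11) were at 0.15 without loess, 0.15 with no filter, 0.16 with the Empty percentile, 0.13 with both channels above background, 0.080 without the 4 blocks, 0.070 when centred on control spots and 0.089 to 0.11 on single arrays. On single arrays the Kruppel-like and Sp median ran between -0.0068 and 0.11 and the ETS median between -0.098 and 0.045, so neither has a settled direction. The p53 family and paired box median (-0.01, 3 genes) was 0.059 without loess, -0.072 with no filter, 0.11 with the Empty percentile, -0.054 when centred on control spots and 0.021 to 0.066 on single arrays. The lens factor median (0.08, 3 genes) was -0.091 with no filter and -0.019 to 0.18 on single arrays, and the corneal target median (0.07) was 0.012 to 0.13 on single arrays and 0.15 under print-tip loess. The retinal factor median (-0.15) was -0.37 with no filter, -1.04 with the Empty percentile, -0.10 without the 4 blocks and -0.23 to -0.17 on single arrays. Counts of called genes (25 higher, 56 lower) were 179 and 130 with no filter, 16 and 34 with the Empty percentile, 60 and 119 at 1.5-fold, 49 to 55 and 85 to 91 on single arrays, and 37 lower without loess and 30 lower with both channels above background. Where no value shows it, the cause was not tested. Each log2 ratio already compares the 2 tissues within 1 array. No analysis across animals was possible because the labels give no replicate numbers and the arrays form 1 replicate.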
